A study of Mus musculus with 8 samples.

Results

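Proteoglycans are core proteins that carry long sulfated sugar chains, the glycosaminoglycans, and hyaluronan is a glycosaminoglycan that is spun out at the cell surface without any core protein. The 40 genes described here code for the core proteins of the matrix and of the cell surface, the link proteins that tie them to hyaluronan, the hyaluronan synthases, and proteins that bind or degrade hyaluronan. They were chosen by gene symbol among the non-control probes of the array, which holds 56605 distinct probes, and all 40 have a probe (70 probes in all). Of the 40 genes, 35 could be tested, among 20219 genes tested on the array. RNA was measured in cardiac mesenchymal stromal cells (cMSCs), fibroblast-like cells from enzymatically digested hearts of C57BL/6 mice. The cells were sorted for Sca-1 and PDGFRα and against the leukocyte antigen CD45 and the endothelial antigen CD31. Aged cMSCs came from mice of 20 months (4 pools, numbered 1 to 4), and young cMSCs from mice of 5 months (4 pools, numbered 2 to 5), ages as the labels give them. Each pool joined cells of 3 mice and was hybridized to its own 1-colour array, although the label of aged pool 4 can be read as naming fewer animals. The labels name no treatment, and the sources used here do not say which of the study's mouse lines gave these pools. The study's methods give male sex for its C57Bl/6JRj mice.

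In the connective tissue of the heart, fibroblasts are known to make most of the small leucine-rich proteoglycans, such as decorin and lumican, which bind collagen fibrils and set their spacing. Glypicans and syndecans hold heparan sulfate at the cell surface and present growth factors to their receptors. Hyaluronan is made by the Has enzymes, bound by Cd44 and organised by Tnfaip6, and is known as a matrix component that increases in wounds and inflammation.

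Levels of single genes are log2 of the background-subtracted signal relative to the 75th percentile of the same array, so that 0 is the level of that percentile and a difference of 1 is a doubling. Levels of different probes are not comparable with each other, since probes differ in brightness for the same amount of RNA. Summed levels of marker lists are on the linear scale, as the sum over the tested genes of the signal divided by the array's 75th percentile, so that a bright probe weighs most, and each is followed by its brightest gene. Between 57.8% and 63.4% of spots were well above background on each array, the scanner software marked no spot as saturated, and the 75th percentile lay between 479 and 816 signal units. The labelled cell type was checked on the genes of the sort. Pdgfra and Ly6a, which codes for Sca-1, were well above background on all 8 arrays, and so were Ptprc and Pecam1, the genes of the excluded antigens CD45 and CD31. Ly6a was higher in aged pools without overlap, by 0.67 on the log2 scale (limma, adjusted p = 0.0516). Pdgfra changed by -0.21 (limma, adjusted p = 0.346). Of the 12 cMSC and fibroblast markers, all tested, 2 had a change above 0 and 10 below, with a median of -0.10. Thy1, the gene of CD90, fell by 0.71 (limma, adjusted p = 0.0476), and passed in 11 of 22 other settings. Col1a1, Col1a2 and Col3a1 changed by -0.38, -0.36 and -0.38 without overlap, and did not pass (limma, adjusted p = 0.0944, 0.112 and 0.124). Ptprc measured 1.44 ± 0.15 in aged pools and 1.37 ± 0.10 in young pools, and Pecam1 -2.32 ± 0.17 in aged pools and -2.34 ± 0.21 in young pools (SD, n = 4 each). Cardiomyocyte markers had a summed level of 7.44 to 12.95 in aged pools and 13.34 to 16.73 in young pools over the 16 tested of 19. Of these, 0 rose and 2 fell (Tnni3 and Pln, limma, adjusted p under 0.05), with a median change of -0.48. Without Myl2, the brightest, that sum was 5.656 to 9.979 in aged pools and 9.998 to 13.16 in young pools. The part of such cells in any result here was not tested. In bulk RNA of this kind, fewer cells of a type and less RNA per cell cannot be told apart.

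The proteoglycan and hyaluronan genes that passed the test were lower in aged cMSCs, and none of the others passed. By limma's moderated test with Benjamini-Hochberg adjustment over all genes (adjusted p under 0.05), 2 of the 35 tested genes fell in aged cMSCs, the glypican Gpc3 and the brain-type hyalectan Bcan, and 0 rose. Those that fell were 5.71% of the 35, while of all genes tested 2.37% rose and 0.801% fell. At an unadjusted p under 0.05, 8 of the 35 genes passed, against 14.2% of all genes. The median change of the 35 genes was 0.09 on the log2 scale, against 0.00 for all genes, and 23 of them had a change above 0 where 50.4% of all genes did. For 19 of the 35 genes the 95% interval of the change lay within 0.5 of 0 on the log2 scale. In 4 genes (Gpc3, Bcan, Omd and Ogn) every aged pool lay below every young pool, where 4.05% of all genes had that order. In 2 genes (Gpc4 and Srgn) every aged pool lay above every young pool, where 6.68% of all genes did.

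**Figure D1:**
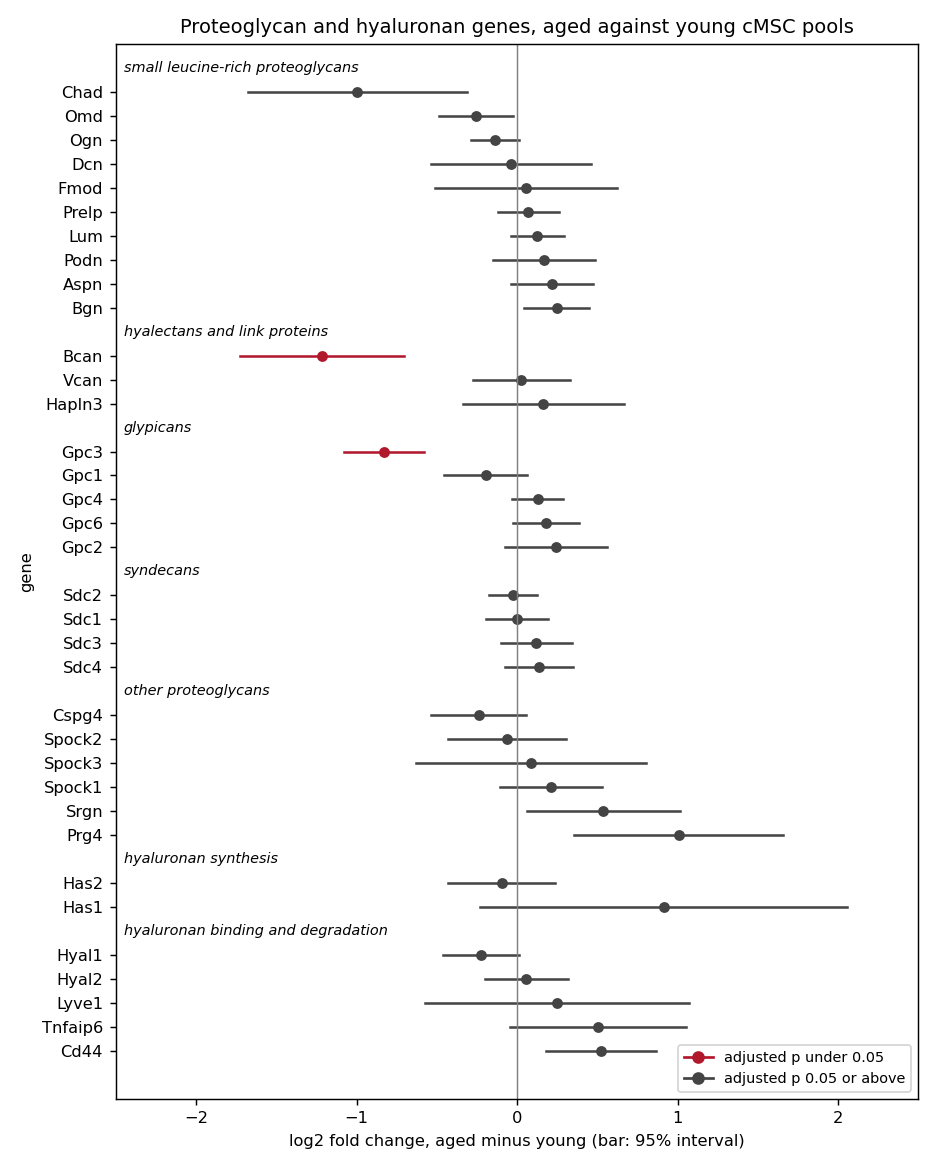
Log2 fold change, aged minus young, of the 35 tested genes, grouped by role, with the limma 95% interval as a bar and genes past an adjusted p of 0.05 in red. Gpc3 and Bcan lie below 0 with their whole interval and pass, while Chad, Omd, Bgn, Prg4, Srgn and Cd44 have intervals that leave out 0 and do not pass after adjustment over all genes. The point of Dcn follows the scaling of the arrays, as its signal was flat.

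Gpc3 and its neighbour Gpc4, and Bcan, are the genes on which the results turn, and their promoters are shown so that the starts of the neighbours Gpc3 and Gpc4, whose changes differed, can be read beside that of Bcan. Gpc3 and Gpc4 are adjacent protein-coding genes on chromosome X, on the same strand. The sequences are from RefSeq on GRCm38.p6, all on the minus strand, 250 bases before to 50 bases after the annotated start of the gene, and stand at chrX:52613925-52614224 for Gpc3, chrX:52164874-52165173 for Gpc4 and chr3:88000307-88000606 for Bcan. Capitals mark the GC box (GGGCGG, or CCGCCC on the other strand) and the CCAAT box (CCAAT, or ATTGG on the other strand).
Gpc3: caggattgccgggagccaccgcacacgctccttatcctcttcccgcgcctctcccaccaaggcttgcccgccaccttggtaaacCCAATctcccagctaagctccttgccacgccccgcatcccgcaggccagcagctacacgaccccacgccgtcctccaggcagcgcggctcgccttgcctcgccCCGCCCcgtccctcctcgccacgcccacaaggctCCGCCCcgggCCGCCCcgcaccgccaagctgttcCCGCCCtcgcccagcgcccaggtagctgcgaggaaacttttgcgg
Gpc4: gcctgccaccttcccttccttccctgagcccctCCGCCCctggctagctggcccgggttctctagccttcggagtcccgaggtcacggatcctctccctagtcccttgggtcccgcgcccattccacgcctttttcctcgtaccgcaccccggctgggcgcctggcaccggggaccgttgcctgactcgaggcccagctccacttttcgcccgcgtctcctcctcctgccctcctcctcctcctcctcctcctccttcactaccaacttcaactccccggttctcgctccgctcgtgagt
Bcan: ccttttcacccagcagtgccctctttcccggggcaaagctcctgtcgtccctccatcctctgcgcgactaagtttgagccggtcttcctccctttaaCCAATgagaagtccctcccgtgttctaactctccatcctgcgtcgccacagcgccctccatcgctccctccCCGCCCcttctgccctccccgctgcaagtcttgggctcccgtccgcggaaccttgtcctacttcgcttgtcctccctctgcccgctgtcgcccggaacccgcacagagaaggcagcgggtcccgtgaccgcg
The Gpc3 window held 4 GC boxes and 1 CCAAT box, the Gpc4 window 1 GC box and 0 CCAAT boxes, and the Bcan window 1 of each. Of 32851 promoter windows of this length, 35.7% held a GC box and 37.4% a CCAAT box, searched on both strands. A TATA box (TATAAA, or TTTATA on the other strand) was in none of the 3 windows and in 13.6% of all windows. The windows were 70.7% (Gpc3), 66.7% (Gpc4) and 64.0% (Bcan) G and C, against a median of 52.7%. A match of letters describes the window and says nothing of binding there.

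Glypicans are anchored to the outer face of the cell membrane by a lipid. Of the 5 tested, 1 fell (Gpc3) and 0 rose, with a median change of 0.13. Gpc3, which restrains growth signalling and is mutated in a human overgrowth syndrome, measured 0.52, 0.64, 0.34 and 0.25 in aged pools 1, 2, 3 and 4, against 1.14, 1.33, 1.20 and 1.41 in young pools 2, 3, 4 and 5. The highest aged pool stood well under the lowest young pool. The log2 fold change was -0.83 ± 0.11 (SE), or 0.562 times the young level, with a 95% interval of -1.08 to -0.58 (limma, adjusted p = 0.00579). An exact two-sided permutation test of this gene gave p = 0.029, the smallest that 4 against 4 can give. Groups without overlap always give this p, so it adds nothing to the order of the pools. The difference was -0.98 among the 4 arrays of the first slide row and -0.68 among those of the second, and between -0.90 and -0.77 when any 1 pool was left out. The call held in 21 of 22 other settings. The probe lies at chrX:49625627-49625686 on mm9, minus strand, and a further Gpc3 probe was near background on all 8 arrays and was not kept.

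Gpc4, a glypican that also acts on growth factor signalling, measured 1.78, 1.87, 1.72 and 1.74 in aged pools 1 to 4, against 1.60, 1.68, 1.62 and 1.70 in young pools 2 to 5. The groups did not overlap, yet the change was small, at 0.13 ± 0.07 (95% interval -0.03 to 0.29, adjusted p = 0.496). Within each array, Gpc3 minus Gpc4 was -1.34 ± 0.12 in aged pools and -0.38 ± 0.08 in young pools (SD, n = 4 each). That difference changed by -0.96, and no scaling between arrays enters it. It is a description with no test, since the pair was chosen with the single values known and the order of the pools in each gene already fixed that the groups would not overlap. A second kept Gpc4 probe had a difference of 0.05. Among the other glypicans, Gpc1 changed by -0.20 (interval -0.45 to 0.06), Gpc6 by 0.18 (-0.02 to 0.39) and Gpc2 by 0.24 (-0.08 to 0.56), none past the threshold.

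**Figure D2:**
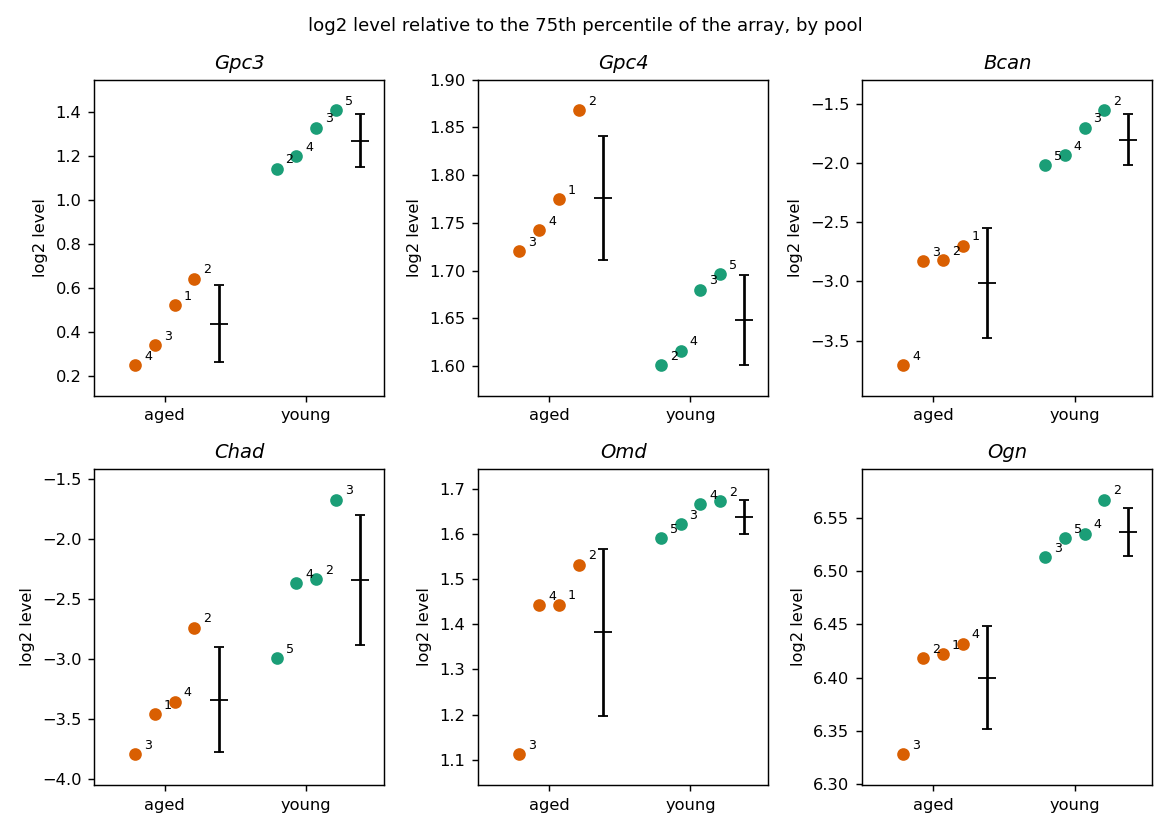
Log2 level (0 is the array's 75th percentile) in each pool for Gpc3, Gpc4, Bcan, Chad, Omd and Ogn, aged left of young, with pool numbers beside the points and mean ± SD (n = 4) as a bar. For Gpc3, Bcan, Omd and Ogn each aged pool is under each young pool, for Gpc4 the order is turned, and for Chad the groups overlap, and each panel has its own scale.

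Hyalectans are large chondroitin sulfate proteoglycans that bind hyaluronan, and link proteins lock that bond. Bcan, known as a proteoglycan of the brain matrix, measured -2.70, -2.82, -2.83 and -3.71 in aged pools 1, 2, 3 and 4, against -1.55, -1.70, -1.93 and -2.02 in young pools 2, 3, 4 and 5. Aged pool 4 was far below the other aged pools, and the groups did not overlap. The change was -1.21 ± 0.22 (SE), or 0.431 times the young level (interval -1.72 to -0.70, adjusted p = 0.0256). The call was lost in 9 of 22 other settings, among them leaving out young pool 2, 3 or 4 or aged pool 3 (adjusted p = 0.0693, 0.0818, 0.0614 and 0.0569), while the change stayed between -1.32 and -0.98 over all pools left out in turn. A second Bcan probe had a difference of -1.39, but was well above background on 1 aged array and on 4 young arrays (adjusted p = 0.216 in a fit over probes). Its levels were -4.66, -5.32, -5.78 and -7.31 in aged pools 1 to 4, against -4.48, -4.43, -4.19 and -4.42 in young pools 2 to 5. The first Bcan probe lies at chr3:87791457-87791516 on mm9, and the second at chr3:87796466-87796525. Because Bcan is known from neural tissue, Schwann cell markers are given beside it: the summed level of the 5 tested of 7 was 2.785 to 3.495 in aged pools and 1.738 to 1.997 in young pools, 1 of them (Mbp) rose and 0 fell, without Mbp the sum was 1.25 to 1.67 in aged pools and 1.29 to 1.50 in young pools, and all 7 had a probe well above background on some array. The part of such cells in the Bcan result was not tested.

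Vcan, the hyalectan of vessels and developing heart valves, had 3 kept probes whose differences were 0.03, 0.00 and 0.01. On the brightest, aged pools lay at 3.41, 3.84, 3.84 and 3.88 and young pools at 3.47, 3.74, 3.79 and 3.86, with an interval of the change of -0.28 to 0.33. The link protein Hapln3 changed by 0.16 (interval -0.34 to 0.67, adjusted p = 0.858). Acan and Ncan, the hyalectans of cartilage and brain, were on no array well above background. Hapln1, the cartilage link protein, was well above background on 1 aged array with one probe and on 1 young array with the other, and was not tested.

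Of the 11 small leucine-rich proteoglycans, 10 were tested, none passed, and the median change was 0.06. Lum, whose product binds collagen, changed by 0.13 (interval -0.04 to 0.29), Prelp by 0.07 (-0.12 to 0.26) and Podn by 0.17 (-0.15 to 0.49). Dcn, which binds collagen and growth factors, could not be read in this way. Its only probe gave a signal of 379100 to 405800 on the 8 arrays, a ratio of 1.07 between the highest and the lowest, while the 75th percentile of the arrays varied by a ratio of 1.71 and the 34 other tested genes by 1.61 or more. Its levels relative to the percentile therefore follow the scaling of the arrays, and its fitted change of -0.04 (-0.54 to 0.46) says nothing about its RNA in either group. Bgn, the X-linked relative of Dcn, changed by 0.25 (0.04 to 0.45, adjusted p = 0.229), and its 3 probes differed by 0.13 to 0.47, all in the same direction. Fmod, a collagen-binding member rich in tendon, changed by 0.06 (-0.51 to 0.63), with young pool 5 at -1.06 and the other young pools between -0.07 and 0.11.

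Aspn, Omd and Ogn are neighbours on chromosome 13. Omd, named for its discovery in bone, measured 1.44, 1.53, 1.11 and 1.44 in aged pools 1 to 4, against 1.67, 1.62, 1.67 and 1.59 in young pools 2 to 5. Ogn, also called osteoglycin, measured 6.42, 6.42, 6.33 and 6.43 in aged pools 1 to 4, against 6.57, 6.51, 6.54 and 6.53 in young pools 2 to 5. Neither gene's groups overlapped, and in both aged pool 3 was the lowest. The changes were small, at -0.25 ± 0.10 for Omd (interval -0.48 to -0.03, adjusted p = 0.283) and -0.14 ± 0.07 for Ogn (-0.29 to 0.01, adjusted p = 0.407). Aspn, whose product binds collagen and TGF-β, had the opposite sign, with 0.22 ± 0.11 (-0.04 to 0.47, adjusted p = 0.451) and overlapping groups. Ecm2, the next gene on the other side of Aspn and a leucine-rich matrix gene outside the 40, changed by -0.38 ± 0.10 without overlap (adjusted p = 0.0825).

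Chad, or chondroadherin, a cartilage matrix protein that binds collagen and integrin, had the largest change of its role. It measured -3.46, -2.74, -3.80 and -3.36 in aged pools 1 to 4, against -2.34, -1.67, -2.37 and -3.00 in young pools 2 to 5. Aged pool 2 lay above young pool 5, so the groups overlapped in this pair. The change was -0.996 ± 0.299 (interval -1.68 to -0.31), or 0.501 times the young level, and did not pass (adjusted p = 0.139), while with array weights it did (adjusted p = 0.0292). Markers of tendon, cartilage and valve had a summed level of 85.3 to 92.6 in aged pools and 37.3 to 53.5 in young pools over the 6 tested of 10. Of these 6 genes, 3 rose (Comp, Cnmd and Cilp) and 0 fell, with Comp alone at 55.5% to 66.3% of the sum. The cartilage collagen gene Col2a1 had the sign of Chad, with a change of -0.40 and every aged pool below every young pool, and did not pass (adjusted p = 0.157), and Sox9 changed by -0.05 (adjusted p = 0.945). Tnmd, Matn1 and Matn3 were on no array well above background, and the list's part in any result here was not tested. Kera, or keratocan, the cornea member, was on no array well above background.

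The 4 syndecans are transmembrane carriers of heparan sulfate. Their changes ran from -0.02 for Sdc2 to 0.14 for Sdc4 (interval -0.07 to 0.35), and none passed. Sdc1 changed by 0.00 (-0.19 to 0.20), Sdc2, the syndecan typical of fibroblasts, by -0.02 (-0.17 to 0.12), and Sdc3 by 0.12 (-0.10 to 0.34). On the Sdc2 probe, aged pools lay between 4.64 and 4.73 and young pools between 4.65 and 4.73.

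Of the 6 other proteoglycans, none passed, and the 2 with the largest changes were higher in aged cMSCs on average. Prg4, or lubricin, the proteoglycan that lubricates joints and tendon sheaths, measured 3.738, 3.876, 3.997 and 4.439 in aged pools 1, 2, 3 and 4, against 3.739, 2.870, 3.107 and 2.308 in young pools 2, 3, 4 and 5. The groups overlapped in a single pair, aged pool 1 and young pool 2, which lay almost level. The change was 1.01 ± 0.29 (SE), or 2.01-fold (interval 0.35 to 1.66, adjusted p = 0.117). It passed when young pool 2 was left out (1.25, adjusted p = 0.0409) and in none of the 21 remaining settings. It was 1.50 in the first slide row and 0.51 in the second.

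Srgn, or serglycin, the proteoglycan of the secretory granules of leukocytes, measured 0.034, 0.350, 0.323 and 1.068 in aged pools 1 to 4, against 0.032, -0.003, -0.039 and -0.363 in young pools 2 to 5. The groups were apart only by the gap between aged pool 1 and young pool 2. The change was 0.54 ± 0.21 (interval 0.06 to 1.01, adjusted p = 0.277), and a second kept Srgn probe had a difference of -0.02, so the probes disagree. Neutrophil markers had a summed level of 54.5 to 91.7 in aged pools and 62.3 to 87.1 in young pools over the 7 tested of 10, of which 3 rose (S100a9, Ly6g and Camp) and 0 fell, with Ngp and Ltf on no array well above background. In that sum Csf3r, which changed by -0.07 (adjusted p = 0.929), made up 88.5% to 97.8%, and without it the other 6 summed to 3.66 to 10.5 in aged pools and 1.91 to 2.71 in young pools. S100a9 rose by 4.32 on the log2 scale, and the median change of the 7 genes was 0.70. Macrophage markers summed to 33.0 to 49.2 in aged pools and 26.7 to 39.4 in young pools over the 14 tested of 19, of which 1 rose (Cd14) and 0 fell, with Fcgr1 on no array well above background. Without Itgam, the brightest, that sum was 8.82 to 13.5 in aged pools and 6.47 to 10.6 in young pools. Mast cell and platelet markers summed to 1.985 to 2.701 in aged pools and 1.302 to 1.760 in young pools. Of the 5 tested of 10, 1 rose (Pf4) and 1 fell (Mcpt4). Without Pf4, the brightest, that sum was 0.289 to 0.664 in aged pools and 0.444 to 0.567 in young pools. T and B lymphocyte markers, with Cd4 the brightest, summed to 1.75 to 2.05 in aged pools and 1.47 to 2.25 in young pools. Of the 5 tested of 10, 1 rose (Cd2) and 0 fell. The part of these cells in the Srgn and Cd44 results was not tested.

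Cspg4, the NG2 proteoglycan of pericytes, changed by -0.24 (interval -0.53 to 0.05, adjusted p = 0.483). Pericyte and smooth muscle markers, all 10 tested, summed to 34.1 to 37.6 in aged pools and 37.3 to 45.1 in young pools, and none rose or fell. Without Acta2, the brightest, that sum was 21.2 to 24.0 in aged pools and 22.6 to 27.2 in young pools. The testicans Spock1, Spock2 and Spock3, calcium-binding matrix proteoglycans, changed by 0.21, -0.06 and 0.09, with Spock3 well above background on 2 aged and 4 young arrays.

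**Figure D3:**
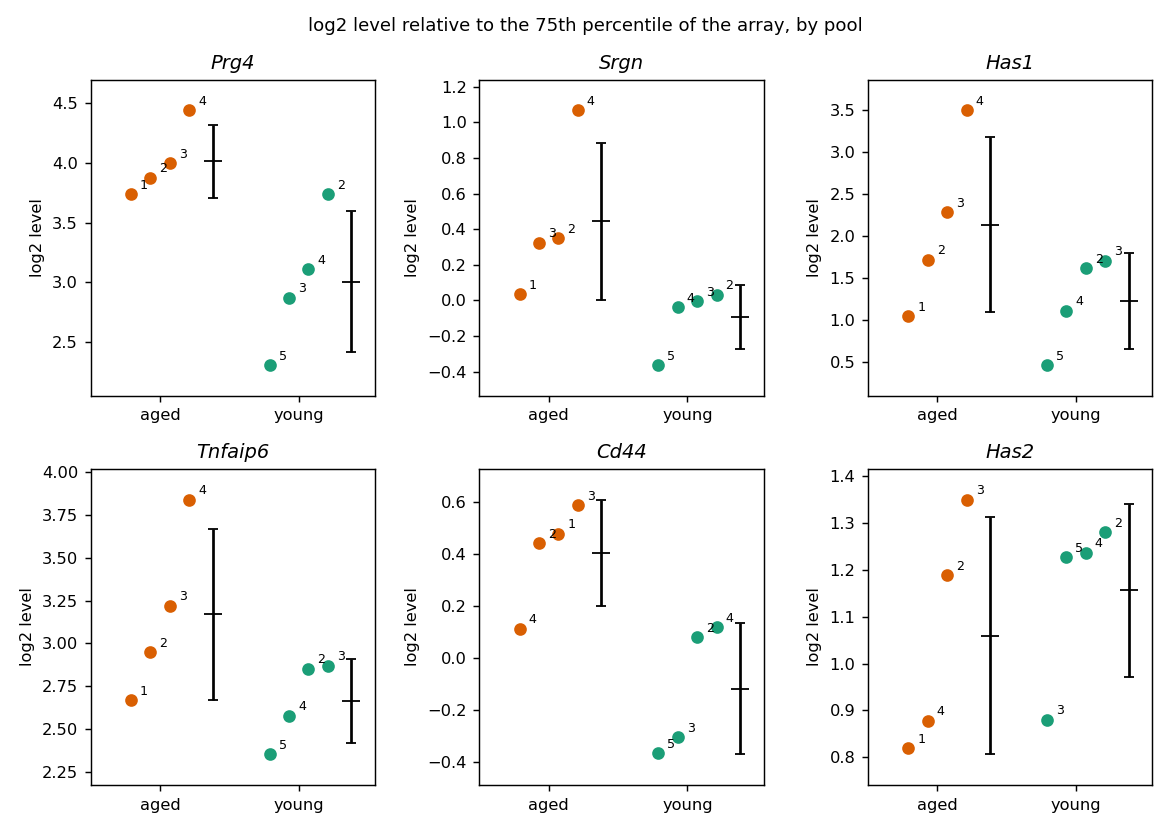
Log2 level (0 is the array's 75th percentile) in each pool for Prg4, Srgn, Has1, Tnfaip6, Cd44 and Has2, aged left of young, with pool numbers beside the points and mean ± SD (n = 4) as a bar. Aged pool 4 is the highest and young pool 5 the lowest of all pools for Prg4, Srgn, Has1 and Tnfaip6, and each panel has its own scale.

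Of the hyaluronan synthases, Has1 had the largest SE of the 35 tested genes and Has2 differed little between groups. Has1, an enzyme of the plasma membrane that extrudes hyaluronan, measured 1.05, 1.72, 2.28 and 3.50 in aged pools 1 to 4, against 1.62, 1.71, 1.11 and 0.47 in young pools 2 to 5. Aged pool 1 lay below young pools 2, 3 and 4, and aged pool 4 stood far above all others. The change was 0.91 ± 0.50 (interval -0.23 to 2.05, adjusted p = 0.499), and a second kept probe had a difference of 0.71. Has2, the synthase needed for heart cushion formation in mouse embryos, changed by -0.10 (-0.43 to 0.23, adjusted p = 0.873), with 0.82, 1.19, 1.35 and 0.88 in aged pools 1 to 4 and 1.28, 0.88, 1.24 and 1.23 in young pools 2 to 5. Has3 was on no array well above background.

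Among genes that bind or degrade hyaluronan, none of the 5 passed. Cd44, the main hyaluronan receptor, measured 0.48, 0.44, 0.59 and 0.11 in aged pools 1 to 4, against 0.08, -0.30, 0.12 and -0.37 in young pools 2 to 5. Aged pool 4 lay just below young pool 4, and no other pair overlapped. The change was 0.52 ± 0.15 (interval 0.18 to 0.86), or 1.44-fold (adjusted p = 0.120), and a second kept probe had a difference of 0.65 with aged pool 4 the highest there. Cd44 passed when all kept probes were averaged (adjusted p = 0.0258) and when the row of the slide entered the fit (adjusted p = 0.0440). Tnfaip6, or TSG-6, which transfers heavy chains onto hyaluronan in inflamed tissue, measured 2.67, 2.95, 3.22 and 3.84 in aged pools 1 to 4, against 2.85, 2.87, 2.58 and 2.35 in young pools 2 to 5. Its change was 0.51 ± 0.24 (-0.05 to 1.06, adjusted p = 0.407).

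The hyaluronidase gene Hyal1 changed by -0.23 (interval -0.46 to 0.01, adjusted p = 0.379). A second Hyal1 probe had a difference of -0.43, with aged pools between -1.06 and -0.95 and young pools between -0.75 and -0.32 (adjusted p = 0.0810 over probes). Its neighbour Hyal2, whose product is held at the cell surface, changed by 0.06 (-0.20 to 0.32). Lyve1, a hyaluronan receptor of lymphatic vessels and some macrophages, changed by 0.25 (-0.57 to 1.07) and was well above background on 4 aged and 3 young arrays. Lymphatic endothelial markers summed to 40.0 to 41.8 in aged pools and 30.0 to 34.8 in young pools over the 4 tested of 7, of which 1 rose (Pdpn) and 0 fell, with Flt4 and Reln on no array well above background. Pdpn made up 79.7% to 87.4% of that sum, and without it the sum was 5.26 to 6.15 in aged pools and 4.96 to 6.67 in young pools. Prox1, the defining lymphatic factor of the list, changed by -0.62 (adjusted p = 0.354), and the part of these cells in the Lyve1 result was not tested.

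In Prg4, Has1, Tnfaip6 and Srgn alike, aged pool 4 was the highest and young pool 5 the lowest of the 8 pools. Bgn had the same order, which makes 5 of the 35 tested genes, and 6.14% of all genes had it too. Aged pool 4 was the highest aged pool in 31.7% of all genes, and young pool 5 the lowest young pool in 36.6%. Of the 14 tested macrophage markers 3 had this order, among them Lyz2 (2.19 in aged pool 4 and -0.16 in young pool 5) and Tyrobp (-1.30 in aged pool 4 and -4.38 in young pool 5). Mesothelial and epicardial markers, given beside them because mesothelium is known to make lubricin and hyaluronan, summed to 1.14 to 1.66 in aged pools and 0.310 to 0.502 in young pools over the 4 tested of 9. Of these 4, 1 rose (Dmkn) and 0 fell, and without Dmkn the sum was 0.218 to 0.773 in aged pools and 0.237 to 0.451 in young pools. Msln and Krt18 had their highest level of all 8 pools in young pool 5 (-2.38 and -3.44). Wt1 had its highest in aged pool 2 (-0.83) and stood at -2.58 in young pool 5. Wt1 changed by 0.75 (adjusted p = 0.421), against -0.63 for Msln and -0.25 for Krt18. Lrrn4 was on no array well above background. The part of mesothelial cells or macrophages in these results was not tested.

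The genes that make, modify and break down the sugar chains were read in 8 lists of 145 genes, of which 115 were tested. Among these 115 genes 4 rose and 1 fell, or 3.48% and 0.870%, near the shares of 2.37% and 0.801% over all genes. Of the 19 genes for the linker, nucleotide sugars and sulfate, none passed and the median change was -0.07. The chondroitin and dermatan sulfate list (14 tested of 16, median 0.01), the keratan sulfate list (6 of 10, median -0.18), the lysosomal degradation list (14 of 15, median 0.13) and the further proteoglycans (16 of 23, median -0.09) also had none. Perlecan (Hspg2) and agrin (Agrn), the heparan sulfate proteoglycans of basement membranes, changed by -0.20 (adjusted p = 0.614) and 0.15 (adjusted p = 0.574).

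In the heparan sulfate list (18 tested of 24, median 0.08), 1 gene rose and 1 fell. Hpse, or heparanase, the enzyme that cuts heparan sulfate chains, measured 0.44, 0.66, 0.62 and 1.06 in aged pools 1 to 4, against -0.65, -0.96, -0.62 and -0.75 in young pools 2 to 5. It rose by 1.44 ± 0.14, or 2.71-fold (adjusted p = 0.00158), and passed in 21 of 22 other settings. Hs6st2, a heparan sulfate 6-O-sulfotransferase, measured -2.90, -2.57, -2.88 and -3.01 in aged pools 1 to 4, against -2.33, -2.48, -2.33 and -2.28 in young pools 2 to 5. It fell by 0.49 on the log2 scale, at 0.714 times the young level (adjusted p = 0.0497), and passed in 4 of 22 other settings, with adjusted p between 0.0154 and 0.375.

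Of the further hyaluronan genes (12 tested of 20, median 0.03), 2 rose, both coding for inter-alpha-trypsin inhibitor heavy chains. Some members of this family, not all, are attached to hyaluronan by TSG-6, and no such attachment was measured here. Itih4 rose by 1.63 ± 0.31, or 3.10-fold (adjusted p = 0.0281), with 0.97, 0.48, 0.37 and 1.93 in aged pools 1 to 4 and -0.86, -0.67, -0.70 and -0.56 in young pools 2 to 5. Itih3 rose by 1.35 ± 0.24, or 2.56-fold (adjusted p = 0.0226), with -1.55, -1.82, -1.80 and -0.64 in aged pools 1 to 4 and -2.82, -2.76, -2.82 and -2.83 in young pools 2 to 5. Neither gene's groups overlapped, and aged pool 4 was the highest in both. Itih4 passed in 12 and Itih3 in 13 of 22 other settings.

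Of the proteases and inhibitors that act on proteoglycans (16 tested of 18, median -0.03), 1 rose. Mmp3, or stromelysin, a metalloprotease that degrades proteoglycan core proteins, measured 4.99, 4.75, 4.87 and 5.25 in aged pools 1 to 4, against 3.91, 3.33, 3.80 and 3.63 in young pools 2 to 5. It rose by 1.30 ± 0.15, or 2.46-fold (adjusted p = 0.00361), and passed in 21 of 22 other settings. Adamts4, an aggrecanase, changed by 0.76 ± 0.20 without overlap of the groups, and did not pass (adjusted p = 0.0869).

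**Figure D4:**
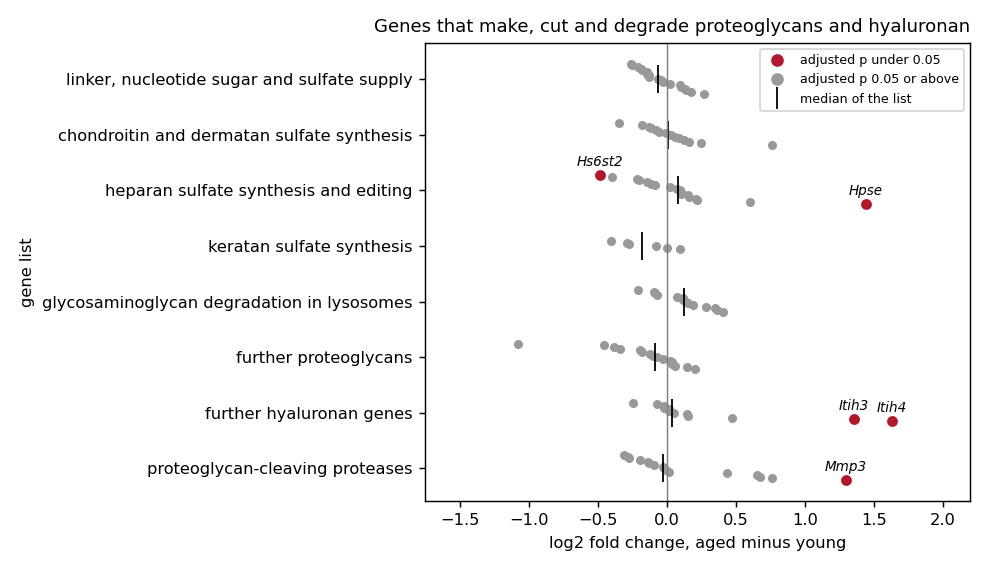
Log2 fold change, aged minus young, of the 115 tested genes in 8 lists for synthesis, modification, cleavage and degradation, with genes past an adjusted p of 0.05 in red and the median of each list as a black bar. Hpse, Itih3, Itih4 and Mmp3 lie above 1, Hs6st2 lies below 0, and all list medians lie between -0.18 and 0.13.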

How the data were processed

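RNA of 4 aged and 4 young cMSC pools was labelled with Cy3 and hybridized to 8 Agilent mouse arrays on 1 slide, in 2 rows of 4. Groups and pool numbers come from the sample labels. For each array the authors deposited linear intensities extracted with Agilent Feature Extraction 10.10.1.1, whose processed signal has background and spatial trend removed and no normalization between arrays. A matrix of normalized log2 values, with a median of 8.12 on each array, was likewise deposited and served as an alternative; no source used here gives its filter or background correction. The submitters' processing notes name limma.

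Control spots and 107 to 153 spots per array marked as outliers were dropped. From log2 processed signals, the 75th percentile of the array was subtracted. A probe had to be well above background on all 4 arrays of either group, and a gene was represented by its brightest such probe. Of 56605 probes, 32989 took the gene symbol that a GRCm38.p6 table gives for their accession, 10228 had a current symbol in the files, and 13388 kept another name from the files. Probe positions are on mm9, per the file headers. Promoter sequences were found for 31 of the 40 genes. The comparison used limma 3.58.1 (R 4.3.3) with lmFit and eBayes (6 residual and 2.53 prior degrees of freedom), with Benjamini-Hochberg adjustment over 20219 genes. Exact permutation tests in scipy 1.17.1 used all 70 assignments of pools. Tables were made with pandas 2.3.3. The fit was tested on simulated data beforehand.

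The genes and lists were chosen with earlier results of these data known. Every one of the 40 genes was accounted for, those that passed or whose groups did not overlap were given in each pool, and for each list the genes that passed were named (up to 4). Perlecan, agrin, Ecm2, Adamts4, single marker genes that did not pass and the per-pool values of Prg4, Has1, Has2, Tnfaip6, Cd44 and Chad were added after their values were seen. So were the marker lists of cMSCs and fibroblasts, of cardiomyocytes, of mast cells and platelets, and of T and B lymphocytes. Nothing in the labels says how mice were assigned to pools, and p-values measure the spread between pools. The number of arrays limits the precision. Alternatives were other normalizations (quantile, cyclic loess, median scaling), normexp background correction with an offset of 50, and other filters and probe rules. Others were limma options, blocks by pool number, pool code and slide row, the authors' table and leaving out each pool. A further alternative, called the methods' t-test here, was the unpaired t-test of the study's general statistics. For the arrays the study's methods name limma.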

Additional observations from a re-analysis of the deposited data

Results flagged for a closer look

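Of the 70 groups of 4 pools checked (35 genes in each age group), 8 held 1 pool far from the other 3 by Dixon's ratio, where chance gives about 1 group in 20. Aged pool 4 was the low pool in 4 of them. It stood at -3.707 for Bcan, with the other aged pools at -2.827 to -2.697, at 3.411 for Vcan, with the others at 3.840 to 3.880, at -0.407 for Sdc1, with the others at -0.145 to -0.120, and at 1.678 for Hyal2, with the others at 1.953 to 1.966. Aged pool 3 was low for Ogn, at 6.328 against 6.418 to 6.432 in the other aged pools. Among young pools, pool 4 was high for Bgn (4.129, others 3.845 to 3.869), pool 5 was low for Fmod (-1.055, others -0.071 to 0.110) and pool 3 was low for Has2 (0.880, others 1.227 to 1.280). The change of Bcan without aged pool 4 was -0.98, and that of Fmod without young pool 5 was -0.21.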

How the results depend on the processing

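The count of 0 genes that rose among the 35 became 1 with the mean of all kept probes and with a slide row block (Cd44 in both). The count of 2 that fell became 1 with no filter on dim probes, the mean of all kept probes, a replicate block by pool code and the methods' t-test (Gpc3 alone in each), and 0 with a replicate block by pool number (Gpc3 adjusted p = 0.192, Bcan 0.115). The fit with the pool number block left out aged pool 1 and young pool 5, whose numbers occur in 1 group only. Its results therefore mix the block with the loss of these pools. With 1 pool left out, 0 to 1 rose (Prg4, without young pool 2) and 1 to 2 fell. Over all genes, the counts of 479 that rose and 162 that fell became 201 and 45 with no filter, 247 and 76 with the methods' t-test, 207 and 51 with a block by pool code and 14 and 2 with a block by pool number, and 379 fell with array weights. Without 1 pool, 261 to 373 rose and 68 to 160 fell, with 261 and 71 without young pool 3, 292 and 94 without young pool 4, 275 and 68 without aged pool 3, 311 and 85 without aged pool 1, and 77 that fell without young pool 2. Deviations of samples with the same number correlated at -0.27, -0.17 and 0.18 (by pool code also 0.14), so the numbers were not taken to pair the samples.

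Of 768 changes of single genes under other settings, 712 kept sign and call, 10 lost the call, 4 gained it and 42 changed sign, all 42 in the genes given next. Dcn, whose flat signal makes its change a matter of scaling, was 0.022 with quantile normalization, 0.068 with array weights, 0.018 with the pool number block and 0.065 in the authors' table. Fmod was -0.074 with array weights and -0.26 with the pool number block, and Vcan -0.020 with median scaling. Sdc1 was -0.0058 with quantile normalization, -0.044 with median scaling, -0.0071 with normexp, -0.017 with the pool number block and -0.022 in the authors' table. Spock3 was -0.0065 with normexp, -0.0044 with array weights, -0.084 with the pool number block and -0.043 in the authors' table. With the pool number block Has2 was 0.0074 and Hyal2 -0.042, and with array weights Lyve1 was -0.25. Without 1 pool, Dcn ranged from -0.21 to 0.11, Fmod from -0.21 to 0.18, Vcan from -0.056 to 0.14, Hapln3 from -0.011 to 0.31, Sdc1 from -0.027 to 0.069, Spock2 from -0.21 to 0.019, Spock3 from -0.12 to 0.28, Hyal2 from -0.021 to 0.13 and Lyve1 from -0.040 to 0.48. The cause of these changes was not tested. Signals near background limit Bcan's second probe, Spock3 and Lyve1. Some other probes were well above background on every array yet dim, among them Bcan's first, at 39 to 221 signal units. Chad had 42 to 158 and Hapln3 41 to 91, where the 75th percentile of the arrays was 479 to 816.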
